A study of Oryza sativa with 4 samples.

Results

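ABC transporters are a large family of membrane proteins, and 66 of the 31453 rice loci listed in the deposited tables carried a description naming an ABC transporter or an ABC-2 type transporter. Every locus with such wording was taken, apart from 1 that is not reported here. The grain tables listed 63 of the 66 and the root tables listed 57. RNA was measured in developing grain and in root of 2 indica rice cultivars, Sharbati and Lalat, whose labels give grain iron of 24.88 ppm and 7.80 ppm. Plants were raised in pots of soil and manure in a net house without any stated treatment, and both organs were collected 15 days after panicle emergence. Each combination of cultivar and organ was represented by 1 poly(A)-selected library, so the spread between plants is unknown, no test was possible, and every difference described here is between 2 libraries. The number of plants behind a library is not given in the labels.

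ABC proteins bind and hydrolyse ATP at paired nucleotide-binding domains and use the energy to move substrates across a membrane. Plant members are sorted into lettered subfamilies. Full-size B proteins include exporters of the hormone auxin, C proteins load glutathione conjugates and metal-chelating phytochelatins into the vacuole, D proteins bring fatty acyl groups into peroxisomes, and G proteins export hormones, waxes and defence compounds. F proteins lack the membrane-spanning part and are tied to translation, and I proteins are single subunits that work in complexes, among them the machinery that builds iron-sulfur clusters in plastids. In rice, STAR1 and STAR2 together form a transporter needed for aluminium tolerance.

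The deposited tables describe these loci in general words, mostly as an ATP-binding protein (36 loci). Finer names came from the protein hits that the authors deposited for assembled transcripts lying over the same loci, which gave an ABC hit for 41 of the 66. Of these, 39 were given a subfamily letter from the hit. Hits to pleiotropic drug resistance proteins, which name no letter, were placed in G, and the hit to STAR1 in I. A further 12 loci were placed by their own description, 4 in B and 8 in G, so that 51 carried a letter. Among the 51, 15 were B, 14 G, 8 C, 6 I, 3 A, 3 F and 2 D. LOC_Os05g02750 had a hit to STAR2 and LOC_Os03g46740 to TRIGALACTOSYLDIACYLGLYCEROL 3 (TGD3), a chloroplast lipid importer subunit known from Arabidopsis, both without a letter, and the 13 other loci stayed without a subfamily. A hit names the most similar protein in the authors' search and is used here only as a label.

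Levels are given in FPKM, fragments scaled to transcript length and library size, which allows genes of different length to be compared within a library. Members were expressed at low to moderate levels in grain, and a larger share of those above 0 reached 1 FPKM in root. In Sharbati grain 58 members were above 0 and 18 reached 1 FPKM. Lalat grain had 63 above 0 and 26 at 1 FPKM or more. In Sharbati root 39 were above 0 and 34 reached 1 FPKM. The numbers for Lalat root were 57 and 46. In the grains 31.0% (Sharbati) and 41.3% (Lalat) of members above 0 thus reached 1 FPKM, beside 44.3% and 52.2% of all genes above 0. In the roots the shares were 87.2% and 80.7% of members, beside 84.8% and 78.3% of all genes. In the grains the median over members above 0 was 0.388 FPKM for Sharbati and 0.540 FPKM for Lalat, below the 0.638 and 1.18 FPKM of all genes above 0. The root medians were 4.78 FPKM in Sharbati and 6.30 FPKM in Lalat, beside 5.88 and 6.53 FPKM for all genes. Summed over members, the level was 146 FPKM (Sharbati) and 223 FPKM (Lalat) in the grains and 443 and 826 FPKM in the roots.

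The depth of the libraries differed, and read totals were not used here. By genes for which the authors' deposited table gives a p-value of 0.159 against 0 in the partner, the normal tail at 1 SD that a value resting on 1 fragment gives, a single fragment was worth a median of 1.07 FPKM in Sharbati root, against 0.105 in Lalat root and, for the grains, 0.0302 in Sharbati and 0.0402 in Lalat. Values of a few FPKM in Sharbati root can therefore rest on few fragments, the more so for short transcripts. The summed levels of marker genes followed the organ labels, though single markers did not all do so. Of 6 grain markers, among them storage proteins, 4 were above 0 in each grain, 3 in Sharbati root and 6 in Lalat root, and their sum was 48848 FPKM (Sharbati) and 36858 FPKM (Lalat) in the grains and 24.6 and 907 FPKM in the roots. The 3 grain markers listed at 0 in Sharbati root were GluD1, RPBF and SSIIIa. The glutelin markers GluB1a and GluB4 were not listed in grain. They stood at 6.86 and 2.74 FPKM in Sharbati root and at 422 and 217 FPKM in Lalat root. Of 4 root markers, 3 were above 0 in each grain and in Sharbati root, where RCc3 was listed at 0, and 4 in Lalat root. They summed to 289 FPKM in Sharbati root, 137 in Lalat root and under 1 FPKM in either grain. Sharbati root also held 1406 FPKM of 4 mitochondrial gene products annotated on chromosome 12, which summed to 1.52 to 7.30 FPKM in the other libraries. Whether these differences bear on the members was not tested. In whole organs, fewer cells of a type and less RNA per cell cannot be told apart.

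**Figure D1:**
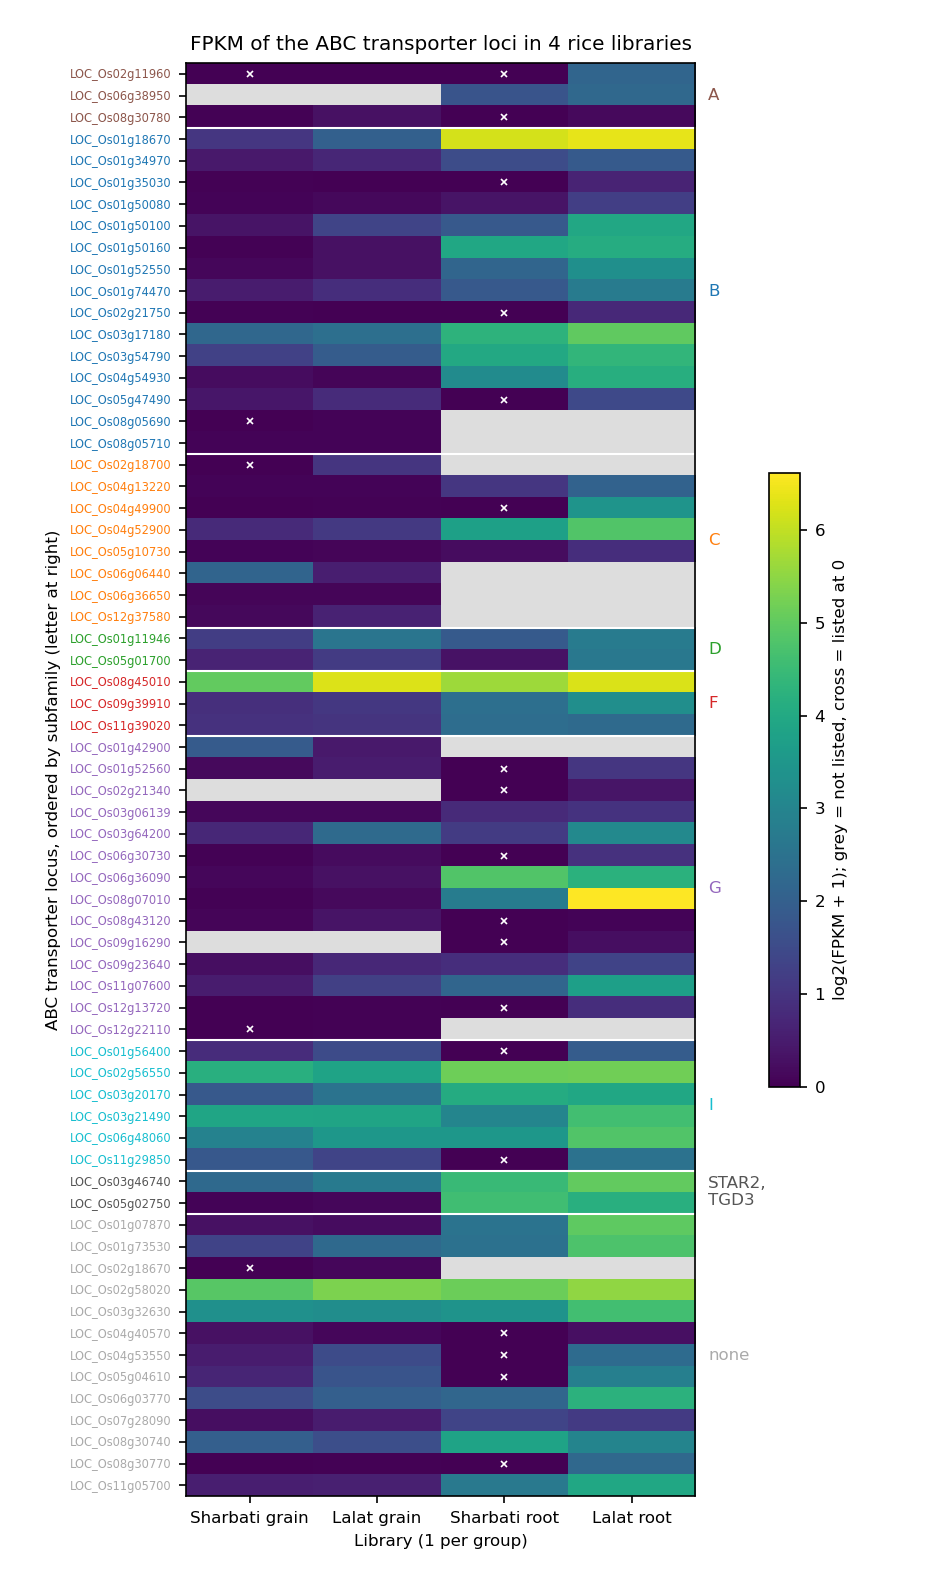
Level of each of the 66 ABC transporter loci (rows, ordered by subfamily) in the 4 libraries (columns), as log2(FPKM + 1); grey cells were not listed for that organ and crosses mark values listed at 0. A few rows are bright in all columns, led by LOC_Os08g45010 and LOC_Os02g58020, most rows are brighter in root than in grain, and 18 crosses stand in Sharbati root.

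A small set of members supplied most of the ABC transporter RNA in grain. The 5 highest members made up 68.9% (Sharbati) and 68.1% (Lalat) of the summed member FPKM in grain. In root they made up 48.9% and 40.5%. LOC_Os08g45010, with a hit to ABC transporter F family member 1, was the highest member in both grains, at 31.7 FPKM in Sharbati and 75.8 in Lalat. It stood at 49.0 FPKM in Sharbati root and 74.8 in Lalat root. LOC_Os02g58020, a locus without a subfamily name whose deposited term is response to cadmium ion, was next in grain. Its levels were 29.02 FPKM in Sharbati grain, 38.5 in Lalat grain, 34.1 in Sharbati root and 44.5 in Lalat root, so the highest and the lowest library lay close together. LOC_Os02g56550, with a hit to I family member 19, stood at 16.9 FPKM in Sharbati grain, 13.2 in Lalat grain, 34.5 in Sharbati root and 35.6 in Lalat root.

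Altogether 6 members reached 5 FPKM in all 4 libraries, and 3 of these belonged to subfamily I. Besides LOC_Os02g56550 these were LOC_Os03g21490 and LOC_Os06g48060. LOC_Os03g21490, with a hit to the chloroplastic I family member 6 and the deposited term iron-sulfur cluster assembly, stood at 13.7 FPKM in both grains, 7.11 in Sharbati root and 23.5 in Lalat root. LOC_Os06g48060, with a hit to STAR1, stood at 6.59 FPKM in Sharbati grain, 10.4 in Lalat grain, 10.3 in Sharbati root and 27.4 in Lalat root. LOC_Os03g32630, which has no subfamily name, completed the set at 8.92, 8.56, 9.58 and 23.5 FPKM in the same order of libraries. At the other end, 17 members stayed under 1 FPKM in every library that listed them.

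Subfamilies differed in where their RNA was found. The 15 B members summed to 7.91 FPKM (Sharbati) and 14.8 FPKM (Lalat) in the grains, and to 138 and 201 FPKM in the roots. The 14 G members summed to 4.44 and 7.64 FPKM in the grains and 39.2 and 141 FPKM in the roots of Sharbati and Lalat. The 6 I members held 43.1 and 45.5 FPKM in the grains and 67.7 and 108 FPKM in the roots, and the 3 F members 33.5 and 77.9 FPKM in the grains and 57.5 and 87.2 in the roots. The F sum was mostly that of LOC_Os08g45010, which made up 94.6% (Sharbati) and 97.3% (Lalat) of it in the grains and 85.2% and 85.7% in the roots. In root the G sum rested largely on 1 locus in either cultivar, LOC_Os06g36090 in Sharbati with 69.1% and LOC_Os08g07010 in Lalat, also with 69.1%. The 3 A members reached at most 3.75 FPKM in any library.

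For the comparison of cultivars in grain, the question the study's title poses is which genes differ between grains of unlike iron content. The log2 of (Sharbati FPKM + 1) over (Lalat FPKM + 1) was taken for members above 0 in both grains and at 1 FPKM or more in at least 1, which left 27 of the 63 members listed. The other 36 were under 1 FPKM in both grains or at 0 in Sharbati, and since a member passes more easily where it is high, counts apply to the 27 alone. Of these, 2 exceeded Lalat by at least 2-fold in Sharbati grain, where 6.31% of all 13417 genes compared were. Another 6 were at least 2-fold lower, where 17.4% of all genes were. The shares of the members, 7.41% and 22.2%, were near that background. The median log2 ratio of the 27 was -0.48, and that of all genes -0.35. Scaling the libraries so that genes at 1 FPKM or more in both had a median ratio of 0, a shift of 0.29 on the log2 scale, left 2 members higher and 2 lower. Of all genes so scaled, 9.23% were higher and 10.4% lower.

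The 2 members higher in Sharbati grain were LOC_Os06g06440 and LOC_Os01g42900. LOC_Os06g06440, with a hit to C family member 10, stood in grain at 3.41 FPKM in Sharbati and 0.475 in Lalat, a ratio of 7.19, and was not listed in root. LOC_Os01g42900, an ABC-2 type transporter domain protein of the kind found in subfamily G, stood in grain at 2.75 FPKM in Sharbati and 0.362 in Lalat, a ratio of 7.58, and was not listed in root either. Both were thus low-level transcripts seen in grain, and higher there in Sharbati than in Lalat under both scalings. LOC_Os06g06440 overlaps LOC_Os06g06430, which was not listed in grain. The strand of the reads is not stated, so reads from overlapping loci cannot be told apart. The same holds for LOC_Os01g52550, LOC_Os05g02750, LOC_Os05g10730 and LOC_Os08g30740, which also overlap another listed locus.

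Among the 6 members lower in Sharbati grain, LOC_Os03g64200 was furthest apart. This locus, with a hit to G family member 3, stood in grain at 0.657 FPKM in Sharbati and 3.91 in Lalat, 5.95-fold higher in Lalat, with a log2 ratio of -1.57. LOC_Os01g11946, with a hit to the chloroplastic D family member 2, stood in grain at 1.301 FPKM in Sharbati and 4.91 in Lalat, with a log2 ratio of -1.36. Those 2 members stayed at least 2-fold lower after the median scaling, at -1.34 and -1.12. The log2 ratio of -1.23 of the F member LOC_Os08g45010 became -0.94 under that scaling. LOC_Os04g53550, LOC_Os05g04610 (deposited term peptide transport) and the B member LOC_Os01g50100 lay between -1.01 and -1.03 and also fell short of 2-fold after scaling.

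In the authors' deposited table, 1102 of 28339 genes (3.89%) were called different between the grains, and so were 3 of the 63 members. The deposited p-value of the authors' table was 0.000341 for LOC_Os06g06440, 0.00162 for LOC_Os03g64200 and 0.00188 for LOC_Os01g42900. These p-values compare 2 libraries and hold no spread between plants.

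All 6 members of subfamily I could be compared between the grains, and 0 were 2-fold apart on either side with 1 FPKM added to both values. By plain FPKM ratio LOC_Os01g56400 (the chloroplastic I family member 10) was past 2-fold, 2.35-fold higher in Lalat grain. Its Sharbati value was under 1 FPKM, at 0.795. Among all genes compared in grain, 6.31% passed 2-fold in favour of Sharbati and 17.4% in favour of Lalat. Whether the 6 members differ from this background was not tested. Log2 ratios of the I members ran from -0.69 in LOC_Os03g20170 (I family member 20) to 0.44 in LOC_Os11g29850 (the chloroplastic I family member 11). LOC_Os03g21490 was at 0.01. STAR1 (LOC_Os06g48060) was at -0.59. Its partner in the rice aluminium transporter, STAR2, was at 0.0453 FPKM in the grain of Sharbati and 0.0891 in that of Lalat, too low to compare. Since each value comes from 1 library, a ratio within 2-fold does not show that the cultivars are alike.

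**Figure D2:**
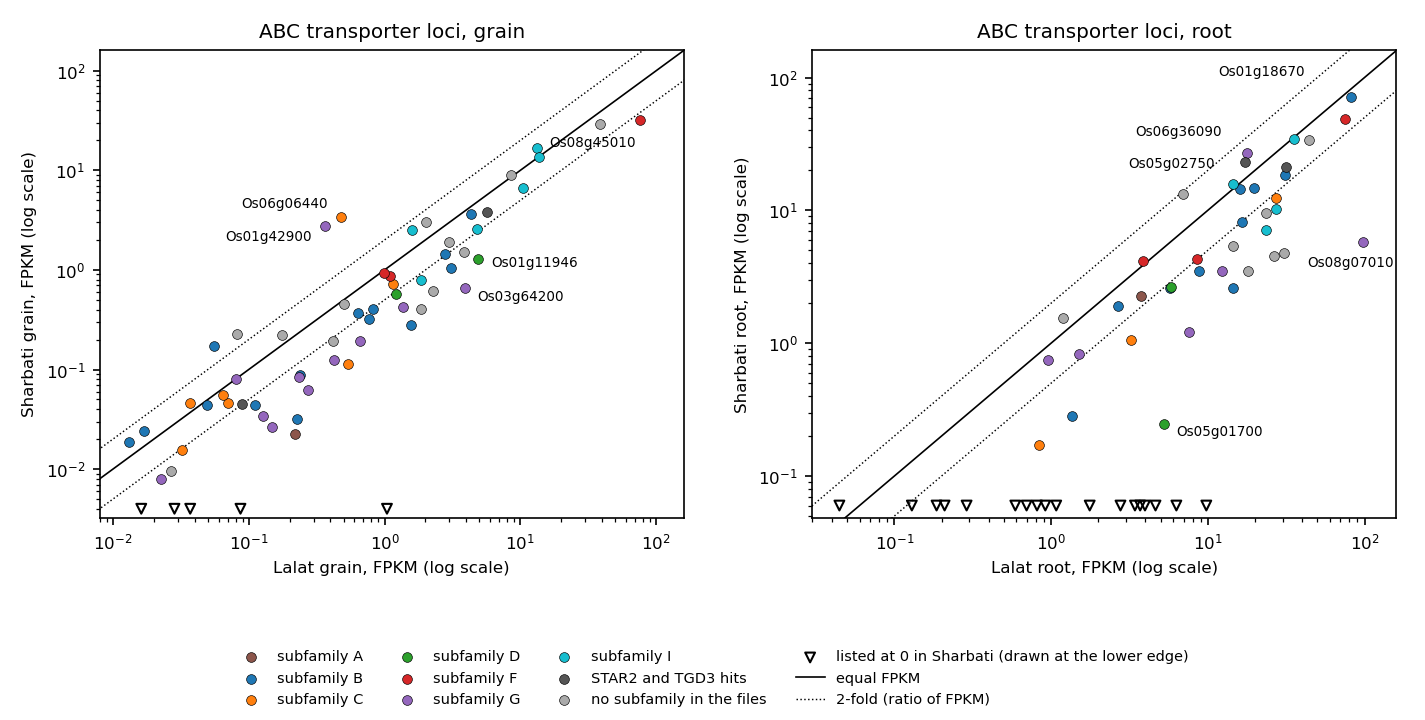
FPKM of each ABC transporter locus in Sharbati (vertical, log scale) against Lalat (horizontal, log scale) in grain (left) and root (right); each point is 1 locus coloured by subfamily, the solid line is equality, the dotted lines mark a plain ratio of 2, and triangles at the lower edge are loci listed at 0 in Sharbati. In grain LOC_Os06g06440 and LOC_Os01g42900 stand above the upper dotted line at several FPKM, and in root the points lie mostly below equality, with LOC_Os08g07010 far to the right.

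In root, members were mostly at or below their Lalat level in Sharbati, as were genes in general. Of the 57 members listed, 37 could be compared, and of the 20 others 18 were listed at 0 in Sharbati root. At least 2-fold lower in Sharbati root were 15 of the 37 (40.5%), where 46.7% of all 13653 genes compared were. At least 2-fold higher were 0 of 37, where 5.51% of all genes were. The median log2 ratio was -0.87 for members and -0.92 for all genes. The shift that sets the median of all genes at 1 FPKM or more to 0 was 1.00 on the log2 scale. After it 4 members were higher and 7 lower, where 15.1% and 19.1% of all genes were, and the members' median was -0.03. Read against the whole library, the members' ratios thus centred where those of all genes did.

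The member furthest apart in root was LOC_Os08g07010, an ABC-2 type transporter domain protein without a closer name. It stood at 5.81 FPKM in Sharbati root and 97.3 in Lalat root, where it was the highest member, and at 0.0339 and 0.126 FPKM in the grains of Sharbati and Lalat. The log2 ratio in root was -3.85, and -2.87 after the median scaling. Of 25225 genes, 287 (1.14%) were called different in root in the authors' deposited table, and 0 of the 57 members were. The smallest deposited p-value of a member in the authors' table, 0.00172, belonged to this locus.

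The other 6 members that stayed at least 2-fold lower after scaling span several roles. LOC_Os05g01700, with a hit to D family member 1, stood at 0.248 FPKM in Sharbati root and 5.24 in Lalat root, and its log2 ratio was -2.32 before and -1.54 after scaling. Its level in Sharbati root was below the median of 1.07 FPKM that 1 fragment was worth there, so this ratio can rest on very few fragments. LOC_Os01g73530, which carries the deposited terms fatty-acyl-CoA transport and peroxisome, stood at 4.57 and 26.5 FPKM in the roots, with ratios of -2.31 and -1.36. Both loci thus carry names or terms tied to fatty acyl transport. In grain too both were at lower FPKM in Sharbati, at 0.578 against 1.21 and 1.52 against 3.83, though within 2-fold on the log2 scale used. LOC_Os01g07870, with the deposited terms chlorophyll catabolite transport, glutathione conjugate export and vacuole, stood at 4.78 FPKM in Sharbati root and 30.7 in Lalat root, and at 0.220 and 0.175 in the grains. LOC_Os06g03770, whose deposited terms include mitochondrion and response to cadmium and lead ions, stood at 3.51 and 18.2 FPKM in the roots, with ratios of -2.09 and -1.16.

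LOC_Os01g50100 and LOC_Os03g64200 were the 2 members at least 2-fold lower in Sharbati than in Lalat in both organs, out of 21 that could be compared in both. LOC_Os01g50100, with a hit to B family member 21, stood at 0.277 and 1.57 FPKM in the grains and 2.59 and 14.6 in the roots, so that Lalat was 5.68-fold and 5.61-fold higher. LOC_Os03g64200 stood at 1.22 FPKM in Sharbati root and 7.62 in Lalat root, 6.25-fold higher in Lalat. After the median scaling its log2 ratio was -1.34 in grain and -1.12 in root, past 2-fold in both organs. LOC_Os01g50100 then passed 2-fold in root alone, at -1.20, with -0.84 in grain. In Sharbati root LOC_Os03g64200 was near the median of 1.07 FPKM that 1 fragment was worth there, and LOC_Os01g50100 at 2.59 FPKM was not far above it. The root ratios of both can therefore rest on few fragments. On the log2 scale used, 9 of the 21 were within 2-fold in both organs. None of the 21, 0 in number, were at least 2-fold higher in both or 2-fold apart in opposite directions. Of all 9959 genes compared in both organs, 7.97% were lower in both, 39.1% were within 2-fold in both, 0.452% were higher in both and 2.83% were apart in opposite directions.

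At the upper end of the root comparison, 4 members passed 2-fold in favour of Sharbati after the median scaling, having been within 2-fold before it. LOC_Os08g30740 stood at 13.3 FPKM in Sharbati root and 6.94 in Lalat root, with log2 ratios of 0.85 before and 1.67 after scaling. It overlaps LOC_Os08g30730, described as a holocarboxylase synthetase, at 14.3 and 35.0 FPKM in the same roots. LOC_Os06g36090, with a hit to pleiotropic drug resistance protein 12 of subfamily G, stood at 27.1 and 17.8 FPKM, with ratios of 0.58 and 1.50. STAR2 (LOC_Os05g02750) stood at 23.1 and 17.2 FPKM, with ratios of 0.41 and 1.33. It overlaps LOC_Os05g02754, which was at 16.5 and 3.93 FPKM. LOC_Os03g20170 (I family member 20) stood at 15.7 and 14.4 FPKM, with ratios of 0.12 and 1.03.

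STAR1 and STAR2 thus lay on different sides in root. STAR1 (LOC_Os06g48060) was 2.66-fold higher in Lalat root, with a log2 ratio of -1.33, and -0.38 after scaling. STAR2 exceeded STAR1 in Sharbati root, at 23.1 against 10.3 FPKM, and STAR1 exceeded STAR2 in Lalat root, at 27.4 against 17.2. Another locus tied to aluminium by its deposited terms, LOC_Os03g54790 with a hit to B family member 25 and the term vacuole, stood at 14.8 FPKM in Sharbati root and 19.6 in Lalat root, within 2-fold at -0.38. With 1 library each, none of these root ratios has a spread to be read against.

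**Figure D3:**
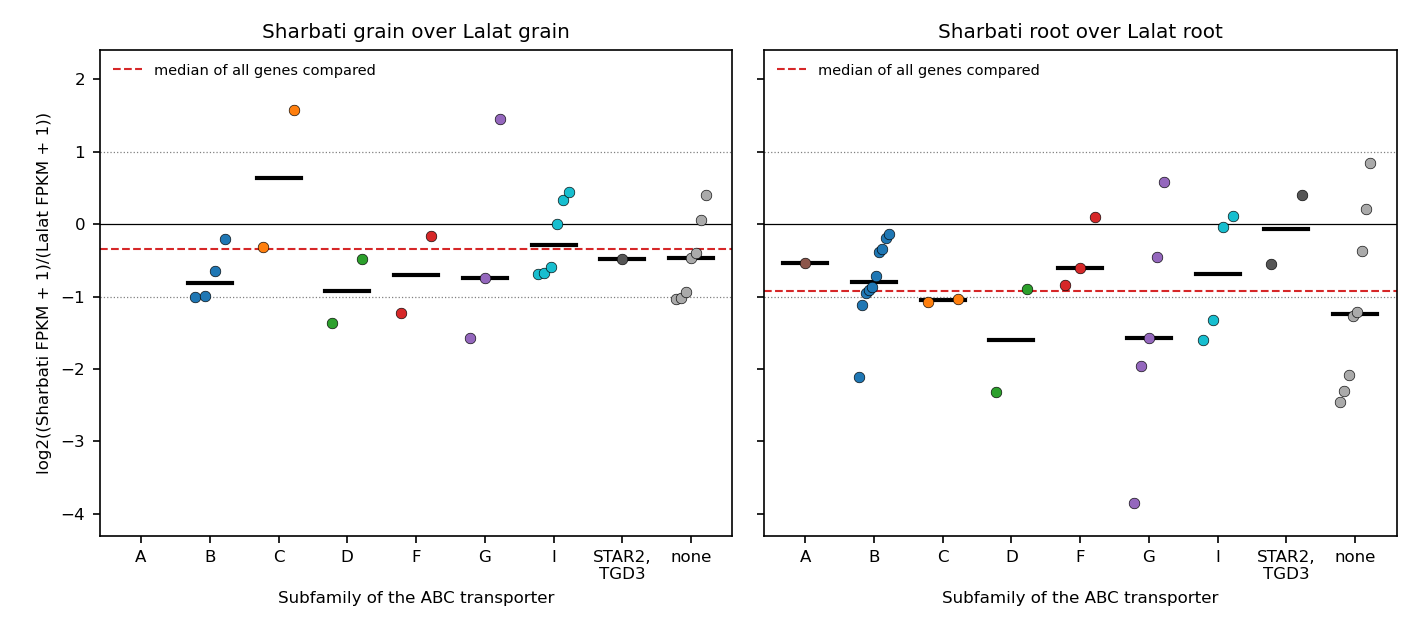
Log2 ratio of Sharbati over Lalat, with 1 FPKM added to both values, for each member compared in grain (left) and root (right), by subfamily; points are loci, short black bars are medians, the dashed line is the median of all genes compared and dotted lines mark 2-fold. In grain the I members lie between the dotted lines, and in root the members spread around the dashed line, with 1 G member, LOC_Os08g07010, at -3.85.

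The root ratios varied within subfamilies, whose small counts were not tested against each other or against all genes. Of 10 B members compared, 2 were at least 2-fold lower in Sharbati with 1 FPKM added to both values, and the rest within 2-fold. Among all genes compared in root, 46.7% were lower by this measure and 5.51% higher. By plain FPKM ratio LOC_Os01g50080, LOC_Os01g74470 and LOC_Os04g54930 were past 2-fold as well, 4.76-fold, 2.20-fold and 2.05-fold higher in Lalat root. The highest B member, LOC_Os01g18670, was at -0.19. The ratio of -1.12 of the B member LOC_Os01g52550 became -0.26 after scaling. Of 5 G members, 3 were lower, from -1.57 in LOC_Os11g07600 (deposited term abscisic acid transport, at 3.50 and 12.3 FPKM) to -3.85, whereas LOC_Os06g36090 was at 0.58. LOC_Os11g07600 was within 2-fold after scaling, at -0.67. Both C members compared were just past 2-fold, LOC_Os04g52900 at -1.07 and LOC_Os04g13220 at -1.04, and neither stayed so after scaling. LOC_Os04g52900, with a hit to C family member 2 and the deposited terms arsenite transport, phytochelatin transport and vacuole, stood at 12.5 FPKM in Sharbati root and 27.2 in Lalat root. Of the 3 F members 0 were 2-fold apart, and of 4 I members 2 were lower, STAR1 and the iron-sulfur cluster member LOC_Os03g21490 at -1.59, which became -0.65 after scaling.

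Across the subfamilies, 6 members carried deposited terms on metal ions, arsenic or iron-sulfur clusters: LOC_Os02g58020, LOC_Os03g21490, LOC_Os03g54790, LOC_Os04g52900, LOC_Os05g02750 and LOC_Os06g03770. This grouping was made after their values had been seen. In grain 5 of them could be compared and 0 were 2-fold apart, with a median log2 ratio of -0.40. In root all 6 could be compared and 3 were at least 2-fold lower in Sharbati, where 46.7% of all genes were, with a median of -0.73, of which LOC_Os06g03770 stayed past 2-fold after scaling. Their levels summed to 46.9 (Sharbati) and 59.2 FPKM (Lalat) in the grains, and to 95.03 and 150.2 FPKM in the roots. The medians of all genes were -0.35 in grain and -0.92 in root.

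A total of 18 members were listed at 0 in Sharbati root and above 0 in Lalat root, and 0 the other way round. They made up 31.6% of the 57 members above 0 in Lalat root, and for all genes above 0 there the share at 0 in Sharbati root was 40.6%. Of the 18, 16 were under 5 FPKM in Lalat root. The 2 above that level were LOC_Os04g49900, with a hit to C family member 9, at 9.79 FPKM, and LOC_Os05g04610 at 6.30 FPKM. A fragment was worth a median of 1.07 FPKM over genes in Sharbati root, but members above 0 there reached down to 0.173 FPKM. Of the 18, 9 were at 1 FPKM or more in Lalat root. For the others, an absence in Sharbati root was not distinguishable from a low level. How many fragments the 9 would have given in Sharbati root is not known. In grain 5 members were at 0 in Sharbati and above 0 in Lalat, 7.94% of 63, where the share for all genes was 12.2%, and 0 were the reverse. LOC_Os02g18700, with a hit to C family member 3, reached 1.04 FPKM in Lalat grain, and the other 4 were under 0.1 FPKM.

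Most members that could be compared were lower in grain than in root. The grain pair and the root pair were processed as separate comparisons by the authors, so organ levels are put side by side without a common scaling. In Sharbati 23 of 33 members compared (69.7%) were at least 2-fold lower in grain than in root, where 51.0% of all 12648 genes were, and 0 were at least 2-fold higher in grain, where 14.0% of all genes were. In Lalat 34 of 45 (75.6%) were at least 2-fold lower in grain, where 59.7% of all 17533 genes were, and 0 were higher, where 7.11% of all genes were. The median log2 ratio of grain over root was -1.51 in Sharbati and -1.90 in Lalat for members, against -1.04 and -1.30 for all genes. Median scaling, with shifts of 0.53 and 1.20, left 20 members lower and 1 higher in Sharbati and 22 lower and 1 higher in Lalat. Of all genes so scaled, 39.9% were lower and 19.1% higher in Sharbati, and 31.8% and 15.4% in Lalat. Because a member enters these counts when it passes 1 FPKM in either organ, those high in root alone enter through root.

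Of the 38 members above 0 in all 4 libraries, 22 were at least 2-fold higher in root in both cultivars and 0 at least 2-fold higher in grain in both. Of all 12912 genes above 0 in the 4 libraries, 39.5% and 3.35% were. With 1 FPKM added to each value, 4 of the 38 exceeded their grain level by at least 10-fold in both, where 7.88% of all these genes did. LOC_Os01g18670, with hits to B family members 4 and 21 and the deposited terms auxin efflux, gravitropism and root hair elongation, stood at 71.7 FPKM in Sharbati root and 82.0 in Lalat root, and at 1.05 and 3.06 in the grains. STAR2 (LOC_Os05g02750) was at 23.1 and 17.2 FPKM in the roots and under 0.1 FPKM in both grains. LOC_Os06g36090 was at 27.1 and 17.8 FPKM in the roots and at 0.0845 and 0.235 in the grains. LOC_Os01g50160, with a hit to B family member 11, was at 14.5 and 16.0 FPKM in the roots and at 0.0322 and 0.226 in the grains. In each of the 4, both roots lay above both grains, and the cultivars were within 2-fold of each other in root before scaling.

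In subfamily B, which includes the auxin exporters, all 9 members compared in Sharbati were at least 2-fold lower in grain than in root, and in Lalat 10 of 11 were, where 51.0% and 59.7% of all genes were. Of these members 6 in Sharbati and 7 in Lalat were under 1 FPKM in grain and entered the comparison through root. LOC_Os03g17180, with a hit to B family member 6, was the highest B member in grain, at 3.62 FPKM in Sharbati and 4.34 in Lalat, and stood at 18.4 and 30.9 FPKM in the roots. LOC_Os04g54930, with a hit to B family member 19, known in Arabidopsis as an auxin exporter, stood at 8.10 and 16.6 FPKM in the roots and at 0.172 and 0.0557 FPKM in the grains. The pair LOC_Os08g05690 and LOC_Os08g05710, with hits to B family members 1 and 19, was not listed in root and stayed under 0.05 FPKM in grain. Of the loci with a hit to B family member 19, LOC_Os04g54930 was thus found in root. LOC_Os08g05710 had no root value, so their root levels cannot be compared. The lipid importer subunit LOC_Os03g46740 (TGD3) stood at 3.80 and 5.68 FPKM in the grains of Sharbati and Lalat and at 21.2 and 31.6 FPKM in the roots, 5.59-fold and 5.56-fold higher in root.

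The organ contrast set STAR1 and STAR2 apart as well. STAR1 was 1.56-fold higher in root than in grain in Sharbati and 2.62-fold in Lalat, whereas STAR2 was 509-fold and 193-fold higher in root. After median scaling the STAR1 ratios were 1.09 and 1.14. In grain STAR1 was therefore present with STAR2 near its lower limit, against the 0.0302 and 0.0402 FPKM that 1 fragment was worth in the grains. Of 5 members with a vacuole term, 3 could be compared between organs, and all 3 were at least 2-fold lower in grain in both cultivars. Of all genes compared, 51.0% in Sharbati and 59.7% in Lalat were so. LOC_Os04g52900 was 17.2-fold and 23.8-fold higher in root in Sharbati and Lalat, and LOC_Os03g54790 10.3-fold and 7.0-fold.

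For some members the unscaled levels in grain and root were near each other. The ratio of root over grain FPKM for LOC_Os08g45010 was 1.54 in Sharbati and 0.99 in Lalat, and 1.07 and 0.43 after median scaling. For LOC_Os02g58020 it was 1.17 and 1.16, and 0.81 and 0.50 after scaling. For LOC_Os03g21490, the iron-sulfur cluster member, it was 0.52 in Sharbati and 1.72 in Lalat, and 0.36 and 0.75 after scaling. LOC_Os01g11946 (D family member 2) had ratios of 2.05 and 1.18, and 1.42 and 0.51 after scaling. Which organ was higher in Lalat thus turned with the scaling for LOC_Os02g58020, LOC_Os03g21490 and LOC_Os01g11946, and in Sharbati for LOC_Os02g58020. Chloroplast terms were carried by 7 members. In Lalat 3 of the 7 were at least 2-fold lower in grain than in root, with a median log2 ratio of -0.74. Of 18 members with a plasma membrane term, 12 could be compared in Lalat and 11 were lower, with a median of -2.47. Of all genes compared in Lalat, 59.7% were lower, with a median of -1.30. In Sharbati 2 of 5 chloroplast members and 9 of 11 plasma membrane members were lower, where 51.0% of all genes were. Members of either group under 1 FPKM in grain, STAR2 (LOC_Os05g02750) among them, entered these counts through root. The difference between these term groups was not tested.

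**Figure D4:**
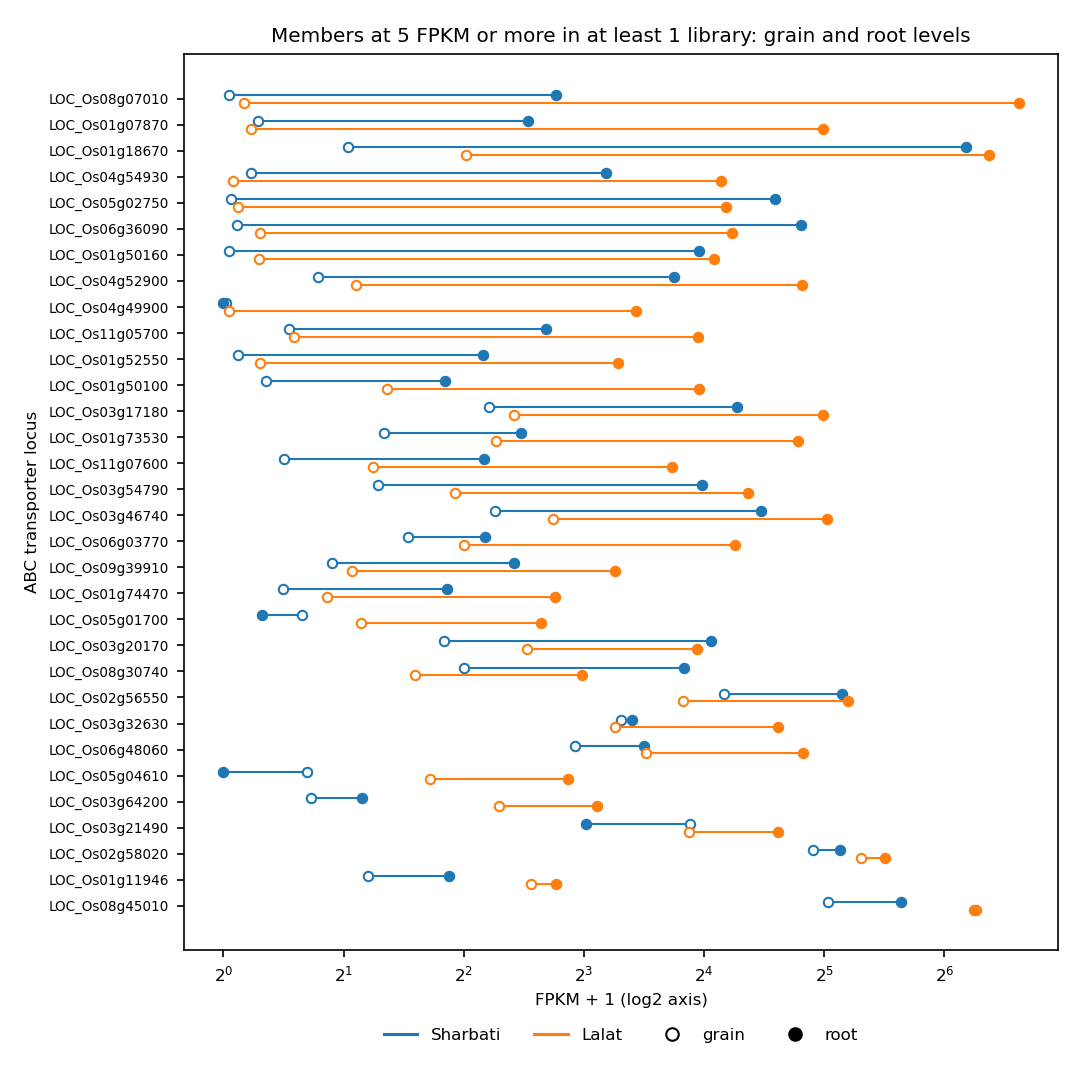
Grain (open) and root (filled) levels of the 32 members at 5 FPKM or more in at least 1 library, as FPKM + 1 on a log2 axis, with Sharbati in blue and Lalat in orange, ordered by the ratio of root over grain in Lalat. Long lines with the filled end to the right mark members found mostly in root, such as LOC_Os08g07010, LOC_Os01g18670 and STAR2 (LOC_Os05g02750), and LOC_Os08g45010 and LOC_Os02g58020 at the bottom have short lines at high levels.

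With a distance of at most 100 kb, 6 clusters held 14 of the 66 loci, in the deposited coordinates, of a build not given in the sources used here. On chromosome 1, between 28774280 and 28832656, LOC_Os01g50080, LOC_Os01g50100 and LOC_Os01g50160 formed a cluster of subfamily B. In the roots of Sharbati and Lalat they stood at 0.284 and 1.35, 2.59 and 14.6, and 14.5 and 16.0 FPKM, so the first and last differed by over 10-fold within each root. On chromosome 8, between 18956802 and 19007607, LOC_Os08g30740 stood at 13.3 and 6.94 FPKM in the roots, LOC_Os08g30770 at 0 and 3.70, and LOC_Os08g30780 at 0 and 0.129. Both clusters held members of unlike root level. Neighbouring copies of a family can share reads, and how the authors' counting divided such reads is not stated, so levels within a cluster are uncertain.

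Other ABC proteins, which the tables describe by older family names such as white-brown complex or pleiotropic drug resistance without the words used to choose members, numbered 46. In grain 10 of them could be compared, of which 0 were at least 2-fold higher and 1 lower in Sharbati, with a median log2 ratio of -0.32 beside -0.35 for all genes. In root 1 of 19 was higher and 12 lower, with a median of -1.08 beside -0.92 for all genes, of which 46.7% were lower. Grain was at least 2-fold lower than root for 11 of 15 in Sharbati and 21 of 27 in Lalat, with medians of -2.15 and -2.59. The shares of all genes were 51.0% and 59.7%, and their medians -1.04 and -1.30. How these loci differ from the members was not tested.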

How the data were processed

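RNA-seq libraries of grain and root of the cultivars Sharbati and Lalat, 1 per group, were analysed as deposited. Per the submitters' processing notes, the tools were Cuffdiff, Cufflinks 1.3.0, TopHat 1.3.3 and Bowtie 0.12.9, on a genome build not given in the sources used here. The authors deposited FPKM values per transcript for the grain pair and the root pair as separate comparisons, together with a p-value and a call for each gene from their own comparison within an organ, at a false discovery rate of 0.05. Protein hits of assembled transcripts were deposited with a score (an E-value). They served to name loci where the transcript overlapped at least 50% of the shorter of the pair. In the tables of assembled transcripts, 4 columns of per-sample values match no sample by name and were not used.

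Each distinct value of a locus was taken once. Ratios were computed as log2 with 1 FPKM added to both values, in Python 3.11.15 with pandas 2.3.3, for loci above 0 in both libraries and at 1 FPKM or more in 1 of them, and counted as apart at 2-fold. Fold values in the text are FPKM ratios without this addition. The counting code was tested on simulated data. FPKM shrinks differences of low genes once 1 is added, and it depends on the few most abundant transcripts of a library, hence the scaling alternatives. Read totals are unknown here, so no counting interval is given. Alternatives were pseudocounts of 0.1 and 5 FPKM, median scaling, equal totals without the 100 highest genes, zeros kept, no filter or a filter of 5 FPKM, and a 4-fold threshold.

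Members and gene lists were chosen with earlier results of these data known. Loci named individually were the 8 highest and 8 lowest ratios per organ among members at 5 FPKM or more, the 5 highest levels per library, members called by the authors, members at 5 FPKM or more against 0, and loci hit by STAR1 or STAR2, 24 in all. Other named members were chosen after their values were seen. A planned description of protein and promoter motifs was not made, because the tables at hand link 0 of the 66 loci to a sequence.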

Additional observations from a re-analysis of the deposited data

How the results depend on the processing

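No paired analysis was possible because each group has 1 library and the labels carry no replicate numbers, so leaving out a replicate was not possible either. In grain, members at least 2-fold lower in Sharbati numbered 6, and 10 with a pseudocount of 0.1 FPKM, 1 with 5 FPKM, 2 with median scaling, 3 with equal totals, 1 with a filter of 5 FPKM and 0 at 4-fold. The 2 higher members became 0 with a pseudocount of 5 FPKM, the filter of 5 FPKM or the 4-fold threshold, and the median of -0.48 became -0.20 without a filter. In root the 15 lower members became 9 with a pseudocount of 5 FPKM, 7 with either scaling, 24 with zeros kept and 6 at 4-fold. The 0 higher became 4 with either scaling. The root median of -0.87 became -0.50 with a pseudocount of 5 FPKM and -0.034 with median scaling, and turned to 0.021 with equal totals. For Sharbati grain beside root, the median of -1.51 became -2.45 and -0.67 with pseudocounts of 0.1 and 5 FPKM, -1.13 with median scaling and -2.21 with the filter of 5 FPKM. The 23 lower became 12 with a pseudocount of 5 FPKM, 13 with that filter and 14 at 4-fold, and 1 was higher under either scaling. For Lalat the median of -1.90 became -2.56 and -0.99 with the pseudocounts, -0.95 with either scaling and -2.36 with the filter. The 34 lower became 22 with a pseudocount of 5 FPKM, median scaling or 4-fold and 21 with equal totals, and 1 and 3 were higher under the scalings. For single named loci, 255 alternative values stayed on the same side of the fold threshold of their setting. Another 28 no longer passed that threshold and 10 newly passed it. Of the 28, 10 were values at the 4-fold threshold, which were unchanged and still past 2-fold. No value past 2-fold changed sign, but the root ratios of 6 loci within 2-fold did so under either scaling. The cause of these changes was not tested, except that a stricter filter or threshold leaves fewer members by construction. Values of a few FPKM in Sharbati root are limited by depth.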
